A study of Macaca mulatta with 34 samples.

Results

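The 10 genes described here encode proteins of the lysosome: the cathepsins CTSB, CTSD, CTSL and CTSZ, the acid lipase LIPA, the cholesterol carrier NPC2, the sphingolipid activator precursor PSAP, the glycosidase GUSB, and the membrane glycoproteins LAMP1 and LAMP2. They were chosen by symbol, with earlier results of these data known. Each symbol matched 1 Ensembl macaque identifier among the 34847 in the count tables, of which 24009 carried a symbol. All 10 were read in all 22 libraries of deep cerebellar nuclei (DCN), the clusters of neurons that carry cerebellar output, from 22 rhesus macaques; the series holds 34 samples, and its small RNA libraries were not used here. Treatments were injected into the DCN under magnetic resonance guidance, and total RNA was sequenced after depletion of ribosomal RNA.

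In Study 1, 6 animals received AAV.miS1, an adeno-associated virus (AAV) vector carrying an artificial microRNA against ATXN1, and 4 received Vehicle. In Study 2, 3 animals each received StufferOnly (a vector with filler sequence and no named microRNA), miSCA7Stuffer (filler with a microRNA named for the ataxia gene ATXN7), intmiS1 (one of the new construct configurations, named for the same microRNA) or EmptyCapsid (the capsid with no named cargo). The series states that Study 1 looked for the cause of toxicity after AAV.miS1 and that Study 2 characterised immune responses to the new constructs. The sample labels used here do not give promoters, doses, ages or the time of collection.

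Lysosomes are acid organelles that break down proteins, lipids and glycans delivered by endocytosis, phagocytosis and autophagy. Most of their enzymes are tagged with mannose 6-phosphate and carried from the Golgi by receptors that recognise the tag, and the vacuolar ATPase acidifies the lumen. TFEB and its relatives TFE3, MITF and TFEC form a family of transcription factors, some of which drive many lysosomal genes together. In brain, microglia and infiltrating macrophages are rich in lysosomes, and inherited loss of CTSD, PSAP, NPC2 or GUSB causes storage disease.

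Assigned counts were 2049685 to 4810852 in the Study 1 libraries, apart from Vehicle replicate 2 with 87741. In that library CTSZ and GUSB rested on 1 read each and CTSL and NPC2 on 3 reads each, so that its GUSB level of 10.4 CPM (counts scaled to a common library size) had an exact Poisson 95% interval of 0.263 to 57.9 CPM, counting error only. The 10 Study 2 libraries counted by featureCounts held 20978241 to 39792653, and intmiS1 replicates 1 and 2, counted by STAR, 5169866 and 4858179. ATXN1 averaged 62.1 ± 14.6 CPM in AAV.miS1 libraries (SD, n = 6) and 96.6 ± 5.86 CPM in Vehicle libraries (n = 4); the groups did not overlap, and edgeR's adjusted p was 0.0604. ATXN1 averaged 41.1 ± 11.3 CPM with intmiS1 and 52.3 ± 6.20 CPM with EmptyCapsid (edgeR adjusted p = 0.722), and ATXN7 31.1 ± 5.98 CPM with miSCA7Stuffer and 34.7 ± 1.91 CPM with EmptyCapsid (0.553; n = 3 each). Neuronal, oligodendrocyte and astrocyte markers were read in every group with no marker of these lists at 0 throughout a group, and so were markers of Purkinje and granule cells, which belong to the cerebellar cortex.

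CPM here were scaled to effective library sizes by TMM, so they compare a gene between libraries of 1 study and not 1 gene with another. A gene was called changed when its Benjamini-Hochberg adjusted p from edgeR's quasi-likelihood F test was under 0.05 over all genes tested in that comparison. In bulk tissue, more cells of a type and more RNA per cell cannot be told apart.

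**Figure D1:**
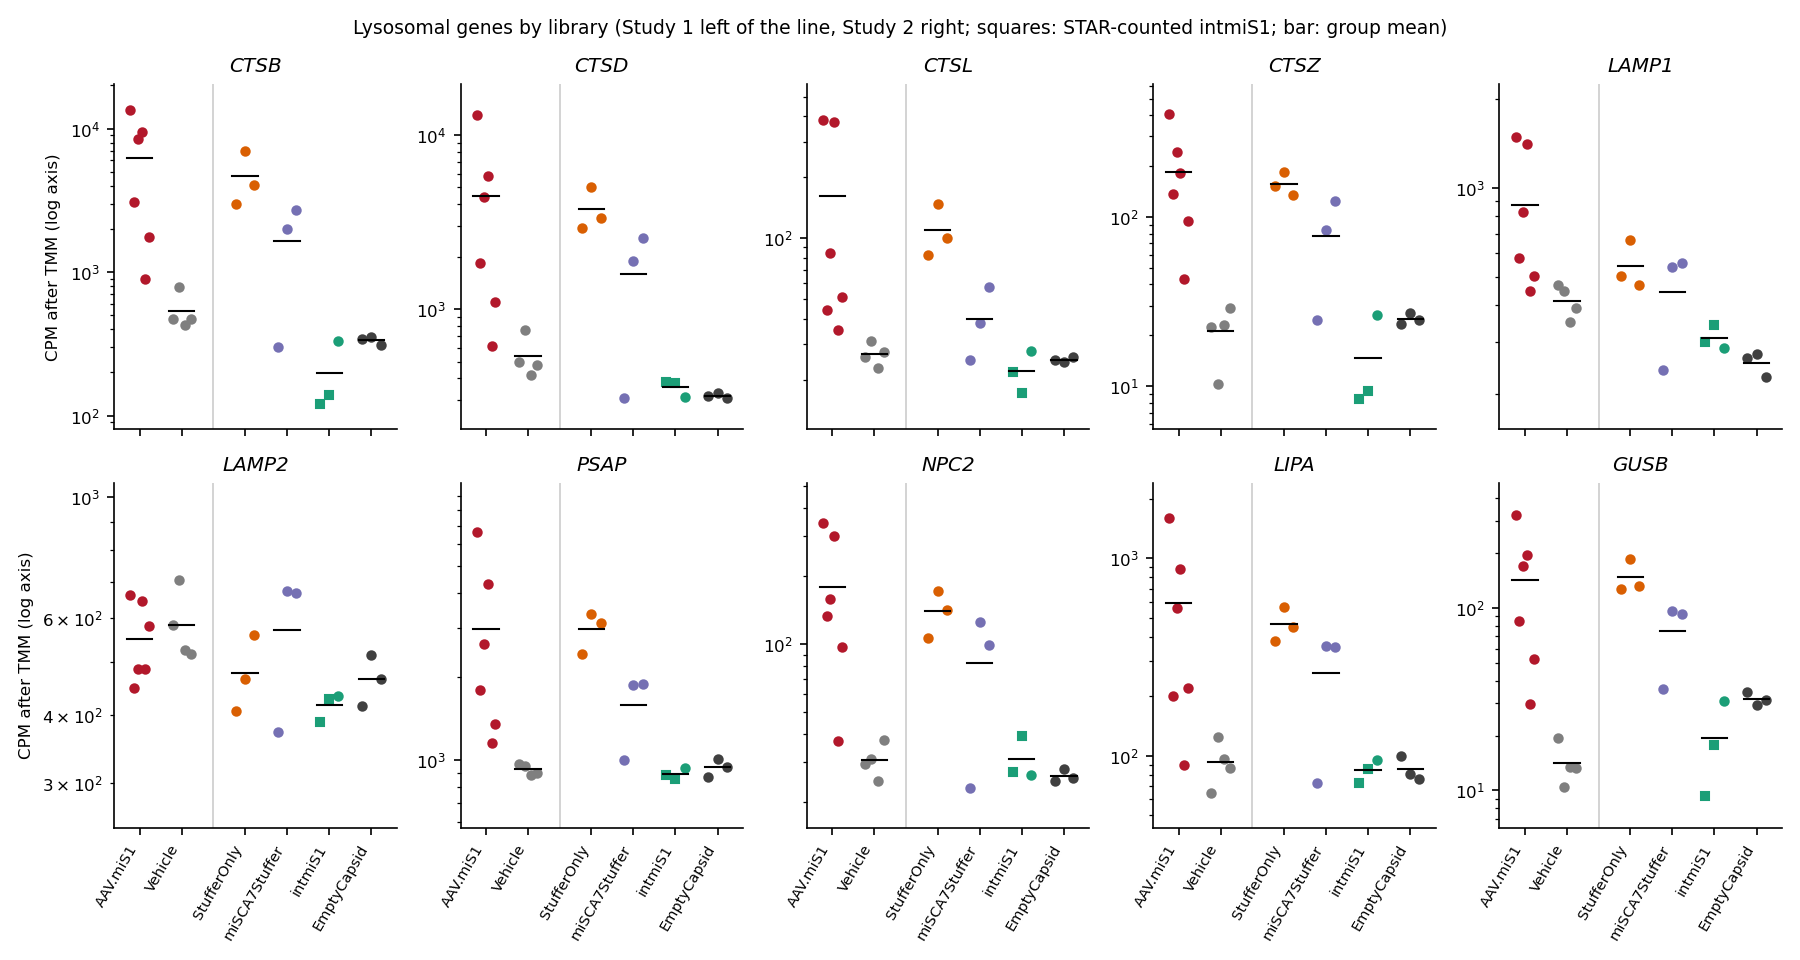
CPM after TMM scaling (log axis) of each of the 10 lysosomal genes in each library, by group; the bar is the group mean, and squares are the 2 intmiS1 libraries counted by STAR. CTSB ran from 902 to 13528 CPM in the 6 AAV.miS1 libraries and from 427 to 789 CPM in the 4 Vehicle libraries, while LAMP2 overlapped between AAV.miS1 and Vehicle and between StufferOnly and EmptyCapsid.

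AAV.miS1 was compared with Vehicle to see how these genes stood in the tissue in which toxicity had been recorded. Of the 10 genes, 5 rose with AAV.miS1 (CTSB, CTSD, CTSZ, NPC2 and GUSB) and none fell. Of all 13383 genes tested in this comparison, 7.5% were called, and 7.22% were called higher. The median log2 fold change was 2.69 over the 10 genes and 0.02 over all genes tested. Another 4 (LIPA, PSAP, CTSL and LAMP1) had positive fold changes with adjusted p between 0.0539 and 0.098, and LAMP2 had a fold change near 0.

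Among the proteases, CTSB, a cysteine cathepsin abundant in phagocytes, ran from 902 to 13528 CPM with a median of 5776 in AAV.miS1 libraries, against 468, 789, 427 and 469 CPM in Vehicle libraries. Every AAV.miS1 library lay above every Vehicle library, and the log2 fold change was 3.54 ± 0.76 (SE; edgeR adjusted p = 0.0279). CTSD, the main aspartic protease of the lysosome, ran from 617 to 13008 CPM (median 3134) with AAV.miS1, against 496, 758, 416 and 477 CPM with Vehicle. Its lowest AAV.miS1 library, replicate 5, lay below Vehicle replicate 2, and its log2 fold change was 3.07 ± 0.81 (adjusted p = 0.0458). CTSZ, a cysteine carboxypeptidase, ran from 43.2 to 406 CPM (median 159) with AAV.miS1, against 22.5, 10.4, 23.1 and 29.2 CPM with Vehicle. The groups did not overlap, and the log2 fold change was 2.95 ± 0.58 (adjusted p = 0.0275). CTSL, a cysteine endopeptidase, ran from 35.1 to 383 CPM (median 67.9) with AAV.miS1, against 26.0, 31.2, 22.8 and 27.5 CPM with Vehicle. Here too the groups did not overlap, but replicates 1 and 4 held 383 and 376 CPM and the other 4 libraries 35.1 to 84.7 CPM, and the log2 fold change of 2.65 ± 0.82 did not pass (adjusted p = 0.0723).

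Among the genes of lipid and glycan breakdown, NPC2, which hands cholesterol to NPC1, ran from 37.4 to 344 CPM (median 146) with AAV.miS1, against 29.4, 31.2, 24.7 and 37.8 CPM with Vehicle. It rose by 2.54 ± 0.58 on the log2 scale (edgeR adjusted p = 0.0313), with AAV.miS1 replicate 5 just inside the Vehicle range. GUSB, which removes glucuronic acid from glycosaminoglycans, ran from 30.0 to 323 CPM (median 128) with AAV.miS1, against 19.5, 10.4, 13.5 and 13.3 CPM with Vehicle. The groups did not overlap, and GUSB had the second largest log2 fold change of the 10 genes, 3.24 ± 0.68 (adjusted p = 0.0275). LIPA, which hydrolyses cholesteryl esters and triglycerides, ran from 89.2 to 1597 CPM (median 390.2) with AAV.miS1, against 64.5, 125, 96.2 and 86.2 CPM with Vehicle, and its log2 fold change of 2.73 ± 0.77 missed the threshold (adjusted p = 0.0539). PSAP, the precursor of the saposins, ran from 1155 to 6647 CPM (median 2202) with AAV.miS1, against 967, 955, 887 and 896 CPM with Vehicle. Its groups did not overlap, yet its log2 fold change of 1.69 ± 0.49 did not pass (adjusted p = 0.0595).

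LAMP1 and LAMP2 are the abundant glycoproteins of the lysosomal membrane. LAMP1 ran from 448 to 1491 CPM (median 705) with AAV.miS1, against 470.1, 447, 353 and 393 CPM with Vehicle (log2 fold change 1.08 ± 0.37, edgeR adjusted p = 0.098). Its lowest AAV.miS1 library, replicate 5, lay within the Vehicle range and the other 5 above it. LAMP2, which as isoform A serves as receptor in chaperone-mediated autophagy, ran from 448 to 662 CPM (median 533) with AAV.miS1, against 583, 706, 526.2 and 517 CPM with Vehicle. Its groups overlapped, with 3 AAV.miS1 libraries below all 4 Vehicle libraries, and its log2 fold change was -0.07 ± 0.17 (adjusted p = 0.813). In 5 of the 10 genes every AAV.miS1 library lay above every Vehicle library, which held for 7.47% of all genes tested.

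**Figure D2:**
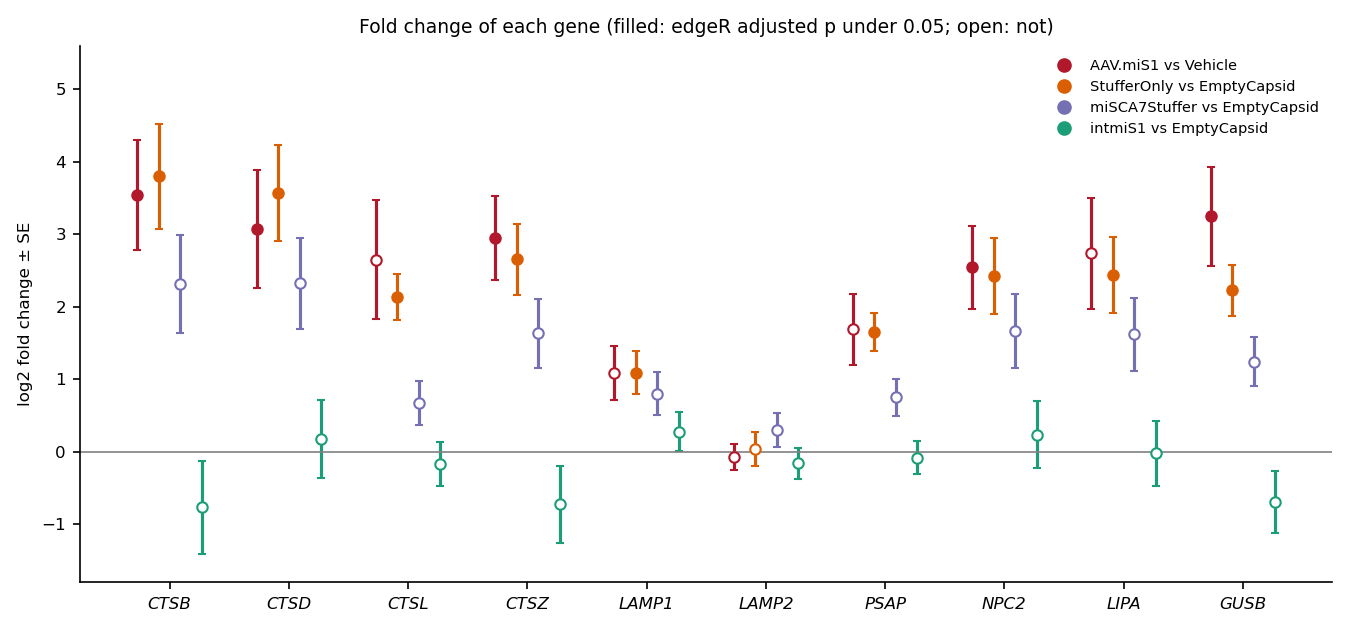
Log2 fold change (± SE) of each gene for AAV.miS1 against Vehicle and for StufferOnly, miSCA7Stuffer and intmiS1 against EmptyCapsid; filled points passed an adjusted p of 0.05 and open points did not. AAV.miS1 and StufferOnly lie at 3.54 and 3.80 for CTSB, 3.24 and 2.23 for GUSB, and -0.07 and 0.04 for LAMP2, and intmiS1 lies between -0.77 and 0.28.

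The AAV.miS1 animals were spread over a wide and shared range. Replicate 1 was highest for all 10 genes, and replicate 5 was lowest for 9 of the 10, the exception being LAMP2, lowest in replicate 2. The 10 genes together took 3.84% of scaled counts in replicate 1, 2.35% in replicate 4, 1.80% in replicate 3, 0.836% in replicate 2, 0.580% in replicate 6 and 0.384% in replicate 5, against 0.279% to 0.386% in the Vehicle libraries. Replicate 5 thus stood within the Vehicle range for the sum, although CTSB, CTSL, CTSZ, PSAP and GUSB were above it. The top of that range, 0.386%, was Vehicle replicate 2, the library with 87741 counts. Vehicle replicates 1, 3 and 4 held 0.314%, 0.279% and 0.295%, all below AAV.miS1 replicate 5.

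Which genes were called in this comparison depended on single libraries. Leaving out any 1 Vehicle library (replicate 1, 2, 3 or 4), or AAV.miS1 replicate 4, left none of the 10 called, with 0 to 3 genes called in all; the median log2 fold change of the 10 then stayed between 2.46 and 2.76. Without AAV.miS1 replicate 5, 9 of the 10 were called, all but LAMP2, beside 2300 of 13267 genes in all, and without replicate 6, 7 were called, beside 1315 of 13268. The share of reads that did not map also split the libraries: it was over 15% in AAV.miS1 replicates 5 and 6 and Vehicle replicates 2, 3 and 4, and under 15% in the other 5. Within the libraries over 15%, GUSB alone was called (log2 fold change 1.62 ± 0.33, edgeR adjusted p = 0.0342; 0.923% of genes called, 0.916% higher) and the median was 0.74; within those under 15%, with 1 Vehicle library, none was called and the median was 3.20. With the unmapped class (over or under 15%) as a covariate none was called (1.11% of genes called, 1.1% higher) and the median was 1.64. DESeq2 and limma with quality weights each called 9 of the 10, all but LAMP2, beside 13.4% and 31.8% of genes.

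StufferOnly was compared with EmptyCapsid to separate a vector with filler cargo from the capsid. Of the 10 genes 9 rose, all but LAMP2, and none fell; of all 20882 genes tested 15.4% were called, 11.6% higher and 3.81% lower. The same 9 genes were higher in every StufferOnly library than in every EmptyCapsid library, as were 26.8% of all genes. The median log2 fold change was 2.33 over the 10 genes and 0.02 over all genes tested.

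Among the proteases, CTSB held 2985, 6999 and 4031 CPM in StufferOnly libraries, against 343, 352 and 312 CPM in EmptyCapsid libraries (log2 fold change 3.80 ± 0.72, edgeR adjusted p = 0.0199). CTSD held 2911, 5006 and 3345 CPM with StufferOnly, against 315, 328 and 308 CPM with EmptyCapsid (3.56 ± 0.66, adjusted p = 0.0194). The EmptyCapsid libraries lay within 1.13-fold of each other for CTSB and 1.06-fold for CTSD, and StufferOnly replicate 2 was the highest StufferOnly library for all genes but LAMP2. CTSZ held 152, 184 and 136 CPM with StufferOnly, against 23.4, 27.0 and 24.6 CPM with EmptyCapsid (2.65 ± 0.49, adjusted p = 0.0194). CTSL held 82.2, 148 and 100.3 CPM with StufferOnly, against 24.9, 24.6 and 26.0 CPM with EmptyCapsid, and had the smallest adjusted p of the 10 (2.13 ± 0.32, 0.0166). All 4 cathepsins thus stood several-fold above a tight control group.

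LIPA held 382, 563 and 446 CPM with StufferOnly, against 99.9, 80.7 and 76.1 CPM with EmptyCapsid (log2 fold change 2.44 ± 0.52, edgeR adjusted p = 0.0229). NPC2 held 107, 172 and 142 CPM with StufferOnly, against 24.8, 28.2 and 25.6 CPM with EmptyCapsid (2.42 ± 0.52, adjusted p = 0.0235). Both genes act on cholesterol from endocytosed lipoprotein, and every StufferOnly library lay above every EmptyCapsid library for each. GUSB held 128, 187 and 132 CPM with StufferOnly, against 34.6, 29.4 and 31.3 CPM with EmptyCapsid (2.23 ± 0.35, adjusted p = 0.0181). PSAP held 2406, 3368 and 3125 CPM with StufferOnly, against 871, 1008 and 947 CPM with EmptyCapsid (1.65 ± 0.26, adjusted p = 0.0181). Neither GUSB nor PSAP overlapped between the groups. LAMP1 held 502, 665 and 471 CPM with StufferOnly, against 265, 273 and 229 CPM with EmptyCapsid (1.09 ± 0.30, adjusted p = 0.043). LAMP2 held 406, 465.6 and 559.8 CPM with StufferOnly, against 414, 514 and 464 CPM with EmptyCapsid, a log2 fold change of 0.04 ± 0.24 (adjusted p = 0.922). Of the StufferOnly libraries 1 lay below and 1 above all 3 EmptyCapsid libraries for LAMP2.

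Which genes were called here also depended on single libraries. Without EmptyCapsid replicate 1, 2 or 3, or without StufferOnly replicate 2 or 3, none of the 10 was called, with 0 to 53 genes called in all, and the median log2 fold change of the 10 was 2.14 to 2.36. Without StufferOnly replicate 1, 8 were called, all but LAMP1 and LAMP2, beside 2593 of 21509 genes in all. Vector reads were counted on the same plasmid reference, with miS1 in its name, for StufferOnly, miSCA7Stuffer and EmptyCapsid. They were 350 (replicate 1), 625.3 (replicate 2) and 248 (replicate 3) RPM with StufferOnly (reads scaled to assigned reads), against 0.151 to 0.281 RPM with EmptyCapsid. The part of vector reads in the gene levels was not tested.

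AAV.miS1 and StufferOnly come from separate studies with separate controls and share no library. The difference between their effects, tested over all 22 libraries, passed for none of the 10 genes and for none of 16537 genes in edgeR (0%; 464 genes at an unadjusted p under 0.05, and 17 genes, none of the 10, in DESeq2). The differences (AAV.miS1 effect minus StufferOnly effect) ran from -0.46 ± 1.00 for CTSD to 1.04 ± 0.81 for GUSB on the log2 scale, with standard errors of 0.27 to 1.00 over the 10 genes. Across the 10 genes the 2 sets of fold changes had a Pearson correlation of 0.927 and a Spearman correlation of 0.855, given as a description over genes of the same tissue type.

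miSCA7Stuffer was compared with EmptyCapsid in the same fit, and shares the EmptyCapsid libraries with the comparison above. None of the 10 genes was called, and 1 gene of 20882 was called in all (0.00479%), with 4808 at an unadjusted p under 0.05, among them 8 of the 10. All 10 fold changes were above 0, from 0.30 for LAMP2 to 2.32 for CTSD, with a median of 1.43 over the 10 genes and 0.07 over all genes. CTSB held 299, 1985 and 2694 CPM with miSCA7Stuffer, against 343, 352 and 312 CPM with EmptyCapsid (log2 fold change 2.31 ± 0.68, edgeR adjusted p = 0.137). CTSD held 307, 1895 and 2553 CPM with miSCA7Stuffer, against 315, 328 and 308 CPM with EmptyCapsid. Replicates 2 and 3 stood several-fold above the controls, and replicate 1 lay below them for both cathepsins.

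Replicate 1 of miSCA7Stuffer was the lowest of its group for all 10 genes. It held 1.64 RPM of vector reads, counted on the shared reference, against 349 and 257 RPM in replicates 2 and 3. The part of vector reads in the gene levels was not tested here either. Without replicate 1, all 10 genes were called higher, with log2 fold changes of 0.50 to 2.78 and a median of 1.79. Of all genes 32.4% were called, and 15.6% were called higher. LAMP2 was among the 10, with 674 and 667 CPM in replicates 2 and 3, against 414, 514 and 464 CPM with EmptyCapsid (0.50, edgeR adjusted p = 0.0346). GUSB was the 1 gene of the 10 that was higher in every miSCA7Stuffer library than in every EmptyCapsid library, at 36.1, 96.9 and 92.6 CPM, against 34.6, 29.4 and 31.3 CPM; 12.2% of all genes did the same. LAMP1 held 241, 538 and 558 CPM and NPC2 23.1, 125 and 99.4 CPM with miSCA7Stuffer, against 229 to 273 and 24.8 to 28.2 CPM with EmptyCapsid. DESeq2 called 6 of the 10 with replicate 1 kept in (11.3% of genes, 7.26% higher).

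Set against StufferOnly, miSCA7Stuffer had lower values for 9 of the 10 genes, with log2 fold changes from -1.49 ± 0.66 for CTSB to -0.29 ± 0.30 for LAMP1, and 0.26 ± 0.24 for LAMP2. None of the 10 and none of 20882 genes was called by edgeR (0%; 2117 at an unadjusted p under 0.05, 3 of them among the 10), and DESeq2 called 476 (2.29%, with 1.44% higher), among them CTSL alone of the 10. CTSL held 25.2, 38.0 and 57.1 CPM with miSCA7Stuffer, against 82.2, 148 and 100.3 CPM with StufferOnly (log2 fold change -1.46 ± 0.31, edgeR adjusted p = 0.243). In 7 of the 10 genes every miSCA7Stuffer library lay below every StufferOnly library, which held for 8.42% of all genes, while 6.24% were higher in every library. Without miSCA7Stuffer replicate 1, the library with 1.64 RPM of vector reads, the median log2 fold change of the 10 was -0.54, against -0.94 with it; CTSB was then at -0.91, NPC2 at -0.24 and LAMP1 at 0.0878.

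The construct intmiS1 was compared with EmptyCapsid over all 12 DCN libraries of Study 2. None of the 10 genes was called, nor any of 21501 genes in edgeR (0%; 1831 at an unadjusted p under 0.05, none of them among the 10; 52 genes in DESeq2, none of the 10). Log2 fold changes ran from -0.77 ± 0.65 for CTSB to 0.28 ± 0.27 for LAMP1, with a median of -0.12 over the 10 genes and 0.01 over all genes. Replicate 3, counted by featureCounts as the EmptyCapsid libraries were, held 330 CPM of CTSB, 314 of CTSD, 27.6 of CTSL, 26.3 of CTSZ, 94.7 of LIPA, 26.2 of NPC2, 934 of PSAP, 30.9 of GUSB, 287 of LAMP1 and 433 of LAMP2. For 8 of these genes that lies within the EmptyCapsid range; CTSL and LAMP1 lay above the highest EmptyCapsid libraries, at 26.0 and 273 CPM. LAMP1 was the 1 gene of the 10 that was higher in every intmiS1 library than in every EmptyCapsid library, as were 9.51% of all genes.

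The way reads were counted decided the sign for CTSB and CTSZ with intmiS1. CTSB held 121 and 140.3 CPM in replicates 1 and 2 by STAR's unstranded column and 411 and 509.7 CPM by its reverse-strand column, against 312 to 352 CPM with EmptyCapsid. CTSZ held 8.39 and 9.44 CPM by the unstranded column and 25.1 and 31.8 CPM by the reverse column, against 23.4 to 27.0 CPM with EmptyCapsid. With the reverse column the log2 fold changes of CTSB and CTSZ were 0.30 ± 0.59 and 0.14 ± 0.42, against -0.77 and -0.72 with the unstranded column, and none of the 10 was called either way. Over all 12 STAR libraries the unstranded column held 30.8% of the reverse-column reads of CTSB and 38.7% of those of CTSZ, and 98.3% to 100.1% of those of the other 8 genes. GUSB differed in another way: reads on the strand opposite to the gene made up 16.7% of its stranded reads over the 12 STAR libraries. That share was 11.7% with AAV.miS1, 44.2% with Vehicle and 53.5% in intmiS1 replicates 1 and 2. For each of the other 9 genes it was at most 0.433% over the 12 STAR libraries. By group it was at most 2.5% for those genes, the value of NPC2 with Vehicle. No source used here gives the strand setting of featureCounts, so in those libraries reads of GUSB and of any transcript opposite to it cannot be told apart. GUSB in Study 1 was counted on the reverse strand alone. With intmiS1, GUSB held 9.34 and 17.7 CPM in the STAR-counted replicates 1 and 2 and 30.9 CPM in replicate 3, against 29.4 to 34.6 CPM with EmptyCapsid. Its log2 fold change was -0.69 with all replicates and -0.0375 with replicate 3 alone, and the part of the counting program was not tested.

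Set against StufferOnly, 8 of the 10 genes fell with intmiS1, all but LAMP1 and LAMP2; 11.9% of 21501 genes were called, 8.46% lower and 3.4% higher. CTSB fell by 4.56 ± 0.74 on the log2 scale (edgeR adjusted p = 0.0111) with the unstranded column and had a log2 fold change of -3.4995 with the reverse column. CTSD, counted alike in both columns, held 384, 378 and 314 CPM with intmiS1, against 2911, 5006 and 3345 CPM with StufferOnly, and fell by 3.39 ± 0.59 (adjusted p = 0.0123). LIPA held 72.3, 85.6 and 94.7 CPM with intmiS1, against 382, 563 and 446 CPM with StufferOnly (-2.46 ± 0.47, adjusted p = 0.0143). LAMP1 held 301, 342 and 287 CPM with intmiS1, against 502, 665 and 471 CPM with StufferOnly, and did not pass (-0.82 ± 0.27, adjusted p = 0.076). For 9 of the 10 genes every intmiS1 library lay below every StufferOnly library, as for 22.6% of all genes. Without intmiS1 replicate 1, 3 of the 10 were called (132 of 22255 genes in all), and without replicate 2, 3 (232 of 22226). With replicate 3 alone, an arm of 1 library assumed to vary like the other groups, none of the 10 and none of 23447 genes was called. The median log2 fold change of the 10 was -2.32, -2.43 and -2.27 in these 3 fits, against -2.38 with all libraries.

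The effect of AAV.miS1 (against Vehicle) and that of intmiS1 (against EmptyCapsid) were set against each other in a fit of all 22 libraries, since both constructs are named for miS1. The difference was above 0 for all 10 genes, from 0.03 ± 0.27 for LAMP2 to 4.25 ± 1.05 for CTSB on the log2 scale, with a median of 2.73 over the 10 genes and 0.04 over all genes. None passed in edgeR (smallest adjusted p of the 10, 0.128), nor did any of 16537 genes (0%; 2865 at an unadjusted p under 0.05, 8 of them among the 10), and DESeq2 called 3 of the 10 beside 400 of 16313 genes. The CTSB difference was 3.21 with the reverse column for intmiS1. Without AAV.miS1 replicate 5, 3 of the 10 passed (328 of 16574 genes in all), and 3 passed without intmiS1 replicate 3 (872 of 16896). These were CTSB, CTSZ and GUSB each time, the genes whose counting is described above as depending on the STAR column or on opposite-strand reads. Without replicate 3, intmiS1 was left with its STAR-counted libraries alone. The studies also differed in depth and counting program, and a study's own control takes up such a difference only where it was counted alike. In Study 2 the EmptyCapsid libraries were counted by featureCounts, and intmiS1 replicates 1 and 2 by STAR at lower depth. Subtracting EmptyCapsid therefore does not remove the counting difference from the intmiS1 effect, and the 2 cannot be told apart.

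LAMP1 and LAMP2 are both heavily glycosylated proteins of the lysosomal membrane, and their ratio needs no scaling between libraries. This ratio was taken up after its values were seen. As log2 of LAMP1 over LAMP2 counts it was 1.17, 0.37, 0.77, 1.12, -0.11 and -0.21 in AAV.miS1 replicates 1 to 6, against -0.31, -0.66, -0.58 and -0.40 in Vehicle libraries. The groups did not overlap: the means were 0.52 ± 0.60 (SD, n = 6) and -0.49 ± 0.16 (n = 4). The two-sided exact permutation p was 0.00952, the smallest that 6 against 4 allows, and 0.0571 after Benjamini-Hochberg adjustment over the 6 comparisons of the ratio. The log2 ratio was 0.31, 0.51 and -0.25 with StufferOnly, -0.63, -0.33 and -0.26 with miSCA7Stuffer, and -0.37, -0.32 and -0.59 with intmiS1, against -0.65, -0.91 and -1.02 with EmptyCapsid. All 3 vector groups lay above EmptyCapsid without overlap, each with an exact permutation p of 0.1, the smallest that 3 against 3 allows. The mean intmiS1 ratio was 0.43 above EmptyCapsid, with neither gene called there. Of the intmiS1 libraries, replicates 1 and 2, at -0.37 and -0.32, were counted by STAR, and replicate 3, at -0.59, by featureCounts like the EmptyCapsid libraries, the highest of which was at -0.65.

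**Figure D3:**
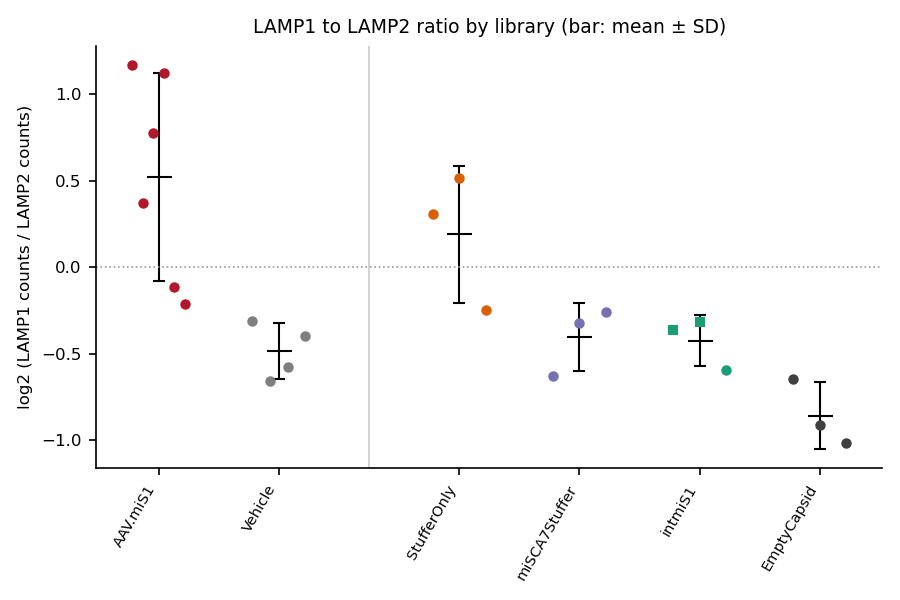
Log2 ratio of LAMP1 to LAMP2 counts in each library, by group; the bars are mean ± SD, and squares are the 2 intmiS1 libraries counted by STAR. The AAV.miS1 libraries run from -0.21 to 1.17 and the Vehicle libraries from -0.66 to -0.31; the EmptyCapsid libraries are the lowest of Study 2, at -1.02 to -0.65.

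How far the 10 genes moved together was described by correlating the log2 CPM of each with the mean of the other 9, standardised. Over the 10 Study 1 libraries the correlation was 0.870 (CTSZ) to 0.988 (PSAP) for 9 of the genes, and 0.219 for LAMP2. Over the 9 featureCounts libraries of StufferOnly, miSCA7Stuffer and EmptyCapsid it was 0.901 (CTSL) to 0.995 (CTSD), and 0.410 for LAMP2. The genes outside the list whose log2 CPM followed the mean of the 10 most closely were TMBIM4, CEPT1, FTH1, CD36 and SLC29A3 in Study 1 (Pearson 0.994 for TMBIM4 and 0.991 for each of the others, over 10 libraries and 12481 genes), and RDH5, CD63, MAMU-DMB, PLXNC1 and FTL in the 9 Study 2 libraries (0.999 for RDH5 and 0.997 to 0.998 for the others, over 13064 genes). FTH1 and FTL encode the heavy and light chains of ferritin, CD36 is a scavenger receptor, CD63 and SLC29A3 are proteins of the endolysosomal membrane, and MAMU-DMB encodes a chaperone that loads peptides on class II molecules. These correlations span groups that differ in mean, and are given as descriptions.

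Other lysosomal genes were read from lists by function, to be set beside the 7.5% and 15.4% of all genes called. The lists were chosen with earlier results of these data known, so these counts are a description and not a test. With AAV.miS1 against Vehicle, 6 of 11 other proteases rose and none fell, among them CTSC, which activates granule proteases, at 495 ± 415 CPM with AAV.miS1 (SD, n = 6) and 50.3 ± 22.2 CPM with Vehicle (n = 4; log2 fold change 3.48 ± 0.72, edgeR adjusted p = 0.0275), CTSS (3.59) and SCPEP1 (2.32). With StufferOnly against EmptyCapsid 8 of 13 rose and none fell, among them LGMN, the asparaginyl endopeptidase that matures several cathepsins, at 601 ± 73.4 CPM with StufferOnly and 57.8 ± 2.75 CPM with EmptyCapsid (n = 3 each; 3.38 ± 0.59, adjusted p = 0.0187), CTSH (3.78) and CTSC (2.98). Of 25 other glycosidases, sulfatases and nucleases, 10 rose with AAV.miS1, among them NAGLU (1.31), and 16 rose with StufferOnly, among them GALNS (1.64), NEU1 (1.35) and HEXA (1.75); none fell in either. Of 13 genes of lysosomal lipid handling, 5 rose with AAV.miS1, among them PLA2G15 (2.48), ASAH1 (2.64) and GRN (3.75), and 8 with StufferOnly, among them NAAA (2.08), GM2A (4.57) and PLA2G15 (2.88). The median log2 fold changes of these 3 lists were 2.32, 1.31 and 1.02 with AAV.miS1 and 1.49, 1.35 and 0.83 with StufferOnly.

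**Figure D4:**
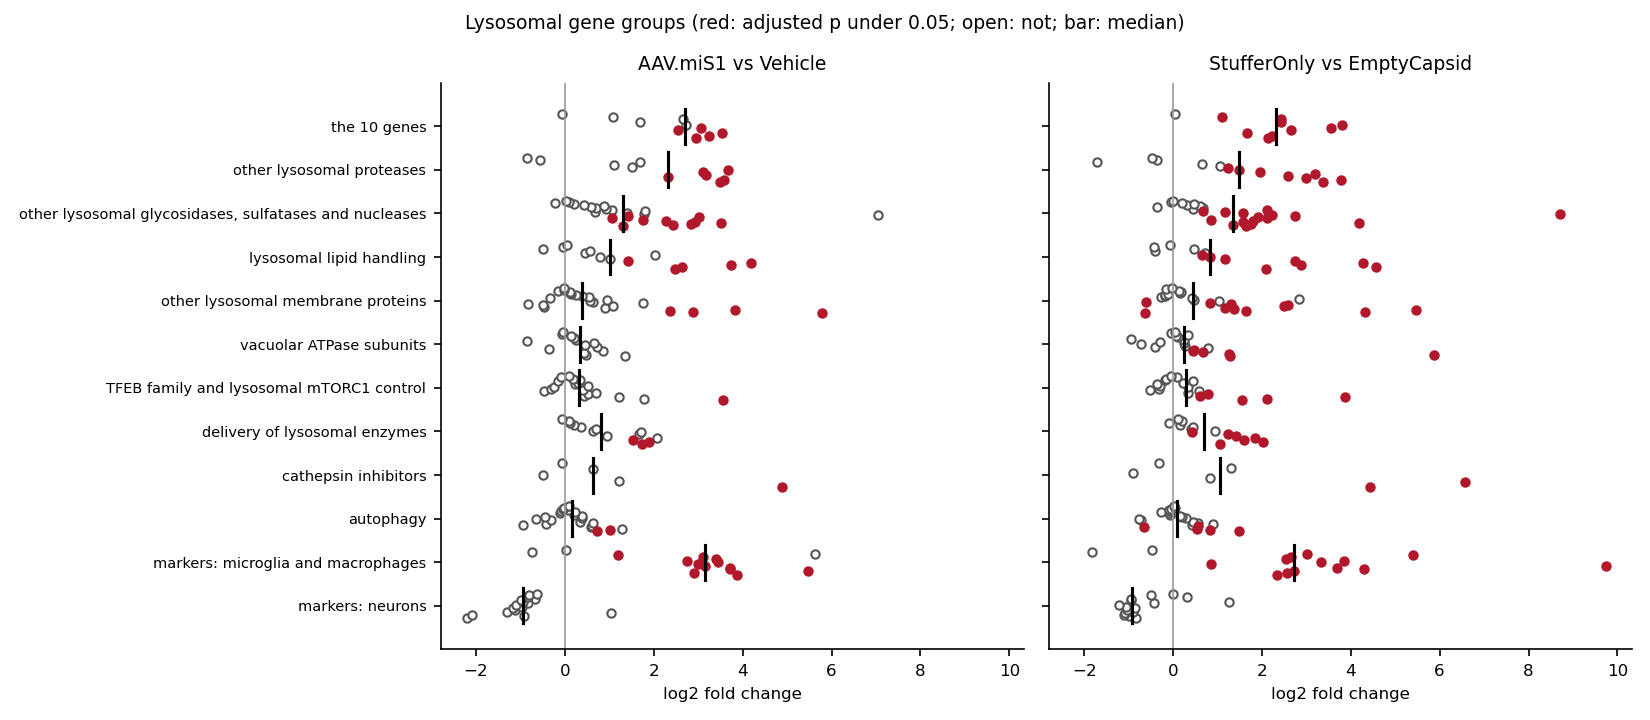
Log2 fold change of every tested gene in each list, for AAV.miS1 against Vehicle (left) and StufferOnly against EmptyCapsid (right); red points passed an adjusted p of 0.05, open points did not, and the bar is the list median. Enzyme lists lie to the right, with medians from 0.83 to 2.32, and the medians of vacuolar ATPase subunits lie at 0.35 and 0.26.

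Lists of membrane, acidification and control genes follow, beside the same shares of all genes. Of the other lysosomal membrane proteins, 4 of 23 rose with AAV.miS1, namely CD68 (5.78 ± 1.09, edgeR adjusted p = 0.0275), LAPTM5 (2.88), CD63 (2.36) and SLC29A3 (3.82), and 9 of 24 rose with StufferOnly, among them SLC29A3 (4.33) and the calcium channel gene TPCN2 (1.63). TMEM106B and ABCA2 fell with StufferOnly; TMEM106B was at 129.8 ± 9.1 CPM with StufferOnly and 201 ± 8.57 CPM with EmptyCapsid (-0.63 ± 0.11, adjusted p = 0.0188). Of the vacuolar ATPase subunits none of 14 was called with AAV.miS1, the smallest adjusted p being 0.0834 for ATP6V0E1 (1.36), and 6 of 19 rose with StufferOnly, among them ATP6AP1 (1.27), ATP6V0D2 (5.88, at means of 2.68 CPM with StufferOnly and 0.0395 CPM with EmptyCapsid) and ATP6V1F (1.25). Of 18 genes of the TFEB family and of mTORC1 control at the lysosome, TFEC rose with AAV.miS1 (3.56 ± 0.73, adjusted p = 0.0275), and TFEC (3.87), RRAGD (2.11), FNIP2 (1.56), FLCN (0.61) and TFEB itself (0.79) rose with StufferOnly. Of 14 genes that deliver lysosomal enzymes, M6PR (1.73), NAGPA (1.90) and GNPTAB (1.53) rose with AAV.miS1, and 7 rose with StufferOnly, among them GGA1 (1.06), IGF2R (2.02) and SUMF1 (1.60). Of 5 cathepsin inhibitors tested CST7, a leukocyte cystatin, rose with AAV.miS1 (4.88), and of 6 tested CST7 (4.44) and CSTA (6.58) rose with StufferOnly. Of 22 autophagy genes 2 rose with AAV.miS1 (SQSTM1, 0.73, and WIPI1, 1.02), and 4 rose (among them ATG7, 1.49, SQSTM1, 0.82, and VPS18, 0.55) and GABARAPL2 fell (-0.66) with StufferOnly.

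Markers of microglia and macrophages moved with the 10 genes. Of 15 tested, 12 rose with AAV.miS1, among them TREM2 (3.86) and ITGAM (2.90), and 13 rose with StufferOnly, among them AIF1 (2.33) and C1QA (2.56); none fell, and CX3CR1 and P2RY12, which mark homeostatic microglia, were called in neither comparison. The summed level of the 16 markers was 1115 to 21731 CPM in AAV.miS1 libraries, against 574 to 1506 CPM in Vehicle libraries. It was 4964 to 7331 CPM with StufferOnly, 439, 4423 and 4931 CPM in miSCA7Stuffer replicates 1 to 3, and 491 to 758 CPM with intmiS1, against 499.6 to 604 CPM with EmptyCapsid. AAV.miS1 replicate 1 had the highest marker sum and replicate 5 the lowest of its group, as for the lysosomal genes. No marker of this list was at 0 in all libraries of a group except TMEM119 with intmiS1. Markers of T and B cells summed to 103 to 778 CPM with AAV.miS1, against 83.1 to 111 CPM with Vehicle, and to 228 to 375 CPM with StufferOnly, against 52.8 to 116 CPM with EmptyCapsid. Of these, LCK and CD2 rose of 6 tested with AAV.miS1 and 7 of 12 rose with StufferOnly, among them CD3E (3.28) and CD79A (5.76); LCK was at 0 in all Vehicle libraries, and CD79B in all EmptyCapsid and all intmiS1 libraries. The part of these cells in the lysosomal gene levels was not tested.

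Neuronal markers were lowest in the AAV.miS1 library with the highest lysosomal levels. Their summed level was 104, 1122, 2474, 933, 5173 and 3939 CPM in AAV.miS1 replicates 1 to 6, against 2762 to 5320 CPM in Vehicle libraries, and none of the 16 was called. With StufferOnly it was 1916 to 3906 CPM, against 4270 to 5715 CPM with EmptyCapsid, and again none of 16 was called. Of 11 oligodendrocyte markers none was called with AAV.miS1 and 7 fell with StufferOnly, among them ERMN (-1.05) and MOBP (-0.96). Of the astrocyte markers none of 10 was called in either comparison. In each, 9 of the 10 had negative fold changes, with medians of -0.72 with AAV.miS1 and -0.94 with StufferOnly. Lower in every library than in every control library were 2 with AAV.miS1 and 8 with StufferOnly, against 2.88% and 22.2% of all genes. Their summed level was 2903, 12118, 20475, 15763, 28139 and 21776 CPM in AAV.miS1 replicates 1 to 6, against 15087 to 17768 CPM with Vehicle. For this sum 3 AAV.miS1 libraries lay above the Vehicle range and 2 below it. With StufferOnly the sum was 6919 to 14806 CPM, against 13396 to 13739 CPM with EmptyCapsid. Of 12 Purkinje and granule cell markers SLC1A6 (-2.38) and CALB1 (-2.11) fell with AAV.miS1 and none was called with StufferOnly. Of 12 endothelial and pericyte markers none was called with AAV.miS1, while PECAM1 (2.35) and VWF (1.61) rose and RGS5 (-0.94) fell with StufferOnly; of the choroid plexus markers none was called in either comparison.

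**Figure D5:**
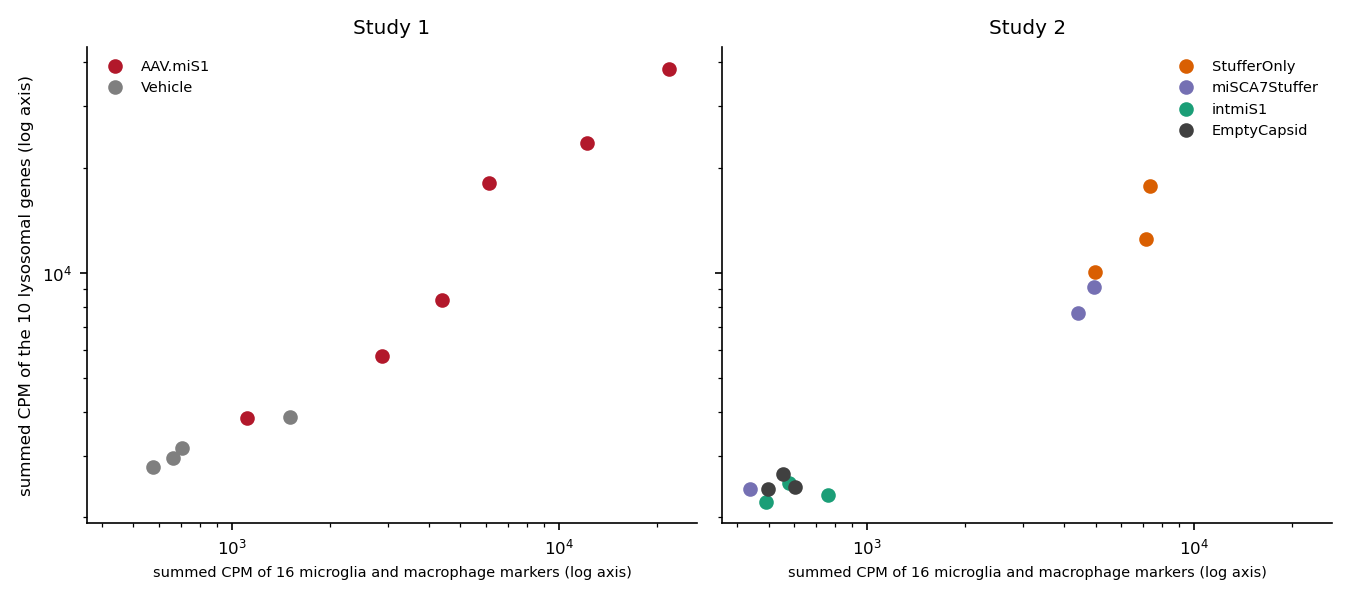
Summed CPM of the 10 lysosomal genes against the summed CPM of 16 microglia and macrophage markers in each library (both log axes), for Study 1 (left) and Study 2 (right). Libraries with high marker sums have high lysosomal sums: AAV.miS1 replicate 1 lies at 21731 and 38387 CPM, and miSCA7Stuffer replicate 1, at 439 and 2403 CPM, lies with the EmptyCapsid libraries.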

How the data were processed

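The aligner was STAR 2.6.0c, per the submitters' processing notes, which also name DESeq2 without a version. The authors deposited raw counts per gene, with no normalization: STAR gene counts for Study 1 and intmiS1 replicates 1 and 2, and, per the file headers, featureCounts with overlapping assignment allowed for the other Study 2 libraries. No source used here gives the genome build. The reverse-strand column was used for Study 1, whose kit was directional per the labels' protocols, and the unstranded column for intmiS1 replicates 1 and 2. Counts over genes totalled 87741 to 39792653 per library.

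Genes passing edgeR's filterByExpr (minimum count 10, minimum total 15) were scaled by TMM and tested with edgeR 4.0.16 quasi-likelihood F tests in R 4.3.3 (prior count 0.125 for fold changes, 2 for log CPM). P-values were adjusted by Benjamini-Hochberg over all genes tested and called under 0.05. Standard errors are the absolute log2 fold change divided by the square root of F. The StufferOnly, miSCA7Stuffer and EmptyCapsid comparisons were fitted on their 9 libraries, those of intmiS1 on all 12 of Study 2, and differences of effects on all 22. Animals carry separate IDs, so replicates are animals. Alternatives were size factors of the RLE kind, no filter, DESeq2 1.42.0, other STAR columns, the unmapped share split at 15%, and leaving out each library. Added after seeing the data were limma 3.58.1 with quality weights, the libraries under 15% unmapped, and the ratio of LAMP1 to LAMP2. The edgeR fit was tested on simulated counts with the same spread set for every gene and no library set apart. That run does not show how the fit does with libraries as uneven as those of AAV.miS1. Figures were drawn with matplotlib 3.10.9.

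By the rule used here the replicate numbers of miSCA7Stuffer and StufferOnly go together: their deviations from the group means correlated at 0.177 to 0.436 in every pair. The labels give no pairing and the replicates are separate animals, so this is a correlation in the data and not a stated part of the design. With the block none of the 10 genes was called, as without it.

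The 10 genes and all lists were chosen with earlier results of these data known. All 10 were named in every comparison. From each functional list the 3 genes, and from each marker list the 2 genes, with the smallest p were named, and the 5 genes most correlated with the mean of the 10. SLC29A3 with AAV.miS1 in its list, FLCN, TFEB, ABCA2 and GABARAPL2 complete a short count, and CX3CR1 and P2RY12 are named as markers that were not called; these were chosen after their values were seen. Small RNA libraries were not used. Some genes that this rule would name are not reported here.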

Additional observations from a re-analysis of the deposited data

Results flagged for a closer look

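In the 4 Vehicle libraries CTSB was 468, 789, 427 and 469 CPM, and the highest, 789 CPM in replicate 2, stood apart: its gap to the next library was 0.883 of the whole range, against a critical value of 0.829 for 4 samples. That library holds 87741 counts, 76 of them for CTSB, and the exact Poisson 95% interval of its level was 622 to 988 CPM, counting error only. Of 20 gene and group combinations checked this was the one that stood apart, and chance gives about 1 in 20.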

How the results depend on the processing

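Of 1231 recomputed values of 86 fold changes and ratios, 1043 kept direction and side of the threshold, 108 lost a call, 42 gained one and 38 changed sign. With AAV.miS1 against Vehicle, 5 of the 10 genes were called. DESeq2 called 9, limma with quality weights 9, the unmapped class (over or under 15%) as covariate 0 and the libraries over 15% unmapped 1. When 1 library was left out, 0 to 9 were called. Leaving out 1 library gave 0 to 8 called with StufferOnly against EmptyCapsid, 0 to 10 with miSCA7Stuffer against EmptyCapsid, 3 to 8 with intmiS1 against StufferOnly and 0 to 3 for the AAV.miS1 effect minus the intmiS1 effect. DESeq2 called 6 with miSCA7Stuffer against EmptyCapsid, 1 with miSCA7Stuffer against StufferOnly and 3 for the AAV.miS1 effect minus the intmiS1 effect, where edgeR called 0; with intmiS1 replicate 3 alone 0 were called against StufferOnly. The cause was not tested.

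With intmiS1 against EmptyCapsid, log2 fold changes with the reverse STAR column were 0.30 for CTSB, 0.14 for CTSZ and 0.0192 for LIPA, and with replicate 3 alone -0.0132 for CTSD, 0.14 for CTSL, 0.0742 for CTSZ and 0.15 for LIPA, each of the other sign than in the fit of all 3 replicates. LAMP1 for the AAV.miS1 effect minus the StufferOnly effect was -0.0106 with no filter and -0.00493 with the unstranded column, against 0.02. Leaving out 1 library turned the sign of small fold changes: LAMP2 ran from -0.14 to 0.0234 with AAV.miS1 against Vehicle, from -0.0905 to 0.14 with StufferOnly against EmptyCapsid, and from -0.0325 to 0.14 for the AAV.miS1 effect minus the intmiS1 effect. LAMP1 ran from -0.48 to 0.0878 with miSCA7Stuffer against StufferOnly and LIPA from -0.12 to 0.10 with intmiS1 against EmptyCapsid. For the AAV.miS1 effect minus the StufferOnly effect the ranges were -0.58 to 0.17 for CTSB, -0.0941 to 0.53 for CTSZ, -0.18 to 0.18 for LAMP1, -0.17 to 0.0634 for LAMP2, -0.32 to 0.27 for PSAP, -0.15 to 0.37 for NPC2 and -0.25 to 0.60 for LIPA.

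With the replicate block, 9 genes were called with StufferOnly against EmptyCapsid, 8 with intmiS1 against StufferOnly and 0 in the other Study 2 comparisons, as without it. Apart from miSCA7Stuffer with StufferOnly, same-numbered libraries correlated at -0.0981 to 0.161, and no other groups met that rule. The LAMP1 to LAMP2 difference for AAV.miS1 was 0.87 to 1.15 over its alternatives, which were leaving out each library and the unstranded column. Their exact permutation p was 0.00952 to 0.0238. The smallest p possible depends on group size, and 0.00952 can be reached only with every library kept. Depth limits CTSL, CTSZ, NPC2 and GUSB in Vehicle replicate 2, with 1 to 3 reads each.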
